A study of Homo sapiens with 8 samples.

Results

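The genes described here are ATF4, the transcription factor of the amino acid response, and genes that belong to its programme: partner transcription factors, feedback genes, enzymes that make amino acids, amino acid transporters and tRNA synthetases. They were named as a list of 32 symbols, and their probe sets were found through the annotation. Of the 32, 31 had at least 1 probe set annotated to them alone, out of 19775 genes on the array. All 31 passed the filter on low values, a mean log2 level of 4.83 over the 8 arrays, which left 14731 genes for testing. The exception was MARS1, the methionyl-tRNA synthetase. Its probe sets also carry another gene symbol, so its level was not analysed here. The 31 genes had 57 probe sets, and the one with the highest mean level over the 8 arrays stood for each gene.

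The cells were HTETOP, a derivative of the human fibrosarcoma line HT1080. In it tetracyclines switch off topoisomerase II alpha (TOP2A), the enzyme that untangles DNA in dividing cells. The study asked what happens to transcripts when TOP2A is silenced, with 1 µg/ml doxycycline for 24 h, and when its activity is inhibited, with 100 µM dexrazoxane for 24 h. Each treatment had its own vehicle cells. Doxycycline and its vehicle had 1 array each, from RNA pooled over 3 passages, numbered 15 to 17. Dexrazoxane and its vehicle had 3 arrays each, every one also from 3 pooled passages. All 4 groups, vehicle cells included, carry the tetracycline-controlled TOP2A. Dexrazoxane is also known to bind iron through a product of its breakdown. Nothing in the labels tells whether arrays 1, 2 and 3 are separate cultures. The p-values therefore cover the spread among these arrays alone, and that spread may be technical.

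Cells sense a shortage of amino acids, misfolded protein, heme deficit or double-stranded RNA through kinases that phosphorylate the initiation factor eIF2. General translation then slows, while the ATF4 message is translated more, so ATF4 is raised largely at the level of protein, which the arrays do not measure. ATF4 pairs with C/EBP proteins at composite DNA elements and turns on genes that make, import and charge amino acids, together with feedback genes that end the response or, through DDIT3 (CHOP), lead to cell death.

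The promoter letters show how members carry such elements. The composite C/EBP-ATF response element was searched as TGATGNAA on both strands in RefSeq windows of GRCh38.p14, from 250 bases before to 50 bases after each start. It was found in 11 of the 28 listed genes that had a window, and in 4.46% of 27305 genes in the table. The 11 were CEBPG, CHAC1, ASNS, SLC7A1, SLC3A2, SLC1A4, SLC1A5, AARS1, GARS1, NARS1 and MARS1. The cyclic AMP response element, TGACGTCA, which reads the same on both strands, was found in 1 of the 28, PPP1R15A, and in 2.25% of genes. The 4 windows printed here were picked by hand among genes whose match lies wholly before the start. They show both strands of the first element in an enzyme, a feedback gene and a synthetase, and the second element in the feedback phosphatase gene. In SLC3A2, SLC7A1 and NARS1 the match lies after the start, and in SLC1A4 and MARS1 it runs into the start. Capitals mark the match, with 30 bases on each side, 5′ to 3′ along the strand of the gene.
ASNS, chr7:97872439-97872506, minus strand: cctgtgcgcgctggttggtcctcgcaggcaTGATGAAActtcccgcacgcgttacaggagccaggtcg
CHAC1, chr15:40953232-40953299, plus strand: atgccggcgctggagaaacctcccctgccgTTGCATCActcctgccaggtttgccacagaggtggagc
AARS1, chr16:70289656-70289723, minus strand: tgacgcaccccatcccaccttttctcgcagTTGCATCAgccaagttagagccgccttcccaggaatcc
PPP1R15A, chr19:48872333-48872400, plus strand: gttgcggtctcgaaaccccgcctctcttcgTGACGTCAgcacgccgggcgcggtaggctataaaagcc
The ASNS match starts 68 bases before the gene's start, the AARS1 match 187, the CHAC1 match 209 and the PPP1R15A match 58. CHAC1 and AARS1 hold the element in the opposite orientation to ASNS. A match describes letters and does not show that a protein binds there. EIF4EBP1, PSPH, NUPR1 and SHMT2 were not in the window table.

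The values are log2 expression levels made with RMA. Medians over all probe sets were 4.81 and 4.82 on the doxycycline pair and 5.49 to 5.57 on the other 6 arrays, so levels were compared only within each treatment. TOP2A checks the labels: it was 11.98 on the doxycycline vehicle array and 6.02 on the doxycycline array. Under dexrazoxane it was 12.45 ± 0.086 in vehicle and 10.88 ± 0.339 in treated cells (mean ± SD, n = 3 each), a difference of -1.57 (limma adjusted p = 0.0949, or 0.00427 with the replicate number as a block). Of the mesenchymal markers looked at, 7 of 8 passed the filter, as did 14731 of the 19775 genes on the array. So did 1 of 5 epithelial markers, 2 of 4 endothelial markers and 1 of the 3 leukocyte markers on the array. The lowest of the 7, PDGFRB at 6.47 in dexrazoxane vehicle, lay below leukocyte CD3E at 7.01 and endothelial PECAM1 at 6.56. Vimentin, the intermediate filament of mesenchymal cells, lay at 13.7 to 13.9 on the dexrazoxane and vehicle arrays.

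With dexrazoxane for 24 h, none of the 31 listed genes passed the test with or without the replicate number as a block. Without the block, no gene on the array did. Limma with Benjamini-Hochberg adjustment over 14731 genes called 0 of the 31 higher and 0 lower, as it did for 0% and 0% of all genes, and the smallest adjusted p among the 31 was 0.941. Without adjustment 1 gene lay above and 1 below at p under 0.05, against 3.16% and 2.04% of all genes. Same-numbered arrays deviated together, and a fit with the number as a block also called 0 of 31 in either direction, against 2.42% higher and 2.44% lower among all genes. There the smallest adjusted p was 0.0648, and 4 genes above and 6 below had an unadjusted p under 0.05, against 13% and 9.37%. The differences were small: mean differences of the 31 genes ran from -0.31 to 0.32 on the log2 scale. Unadjusted 95% intervals with the block lay between -0.50 and 0.54, and without it between -1.02 and 1.12. In cultured cells measured in bulk, a change in the share of cells in some state and a change in RNA per cell cannot be told apart.

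The signs leaned downward. Mean differences lay below 0 for 21 of the 31 genes, against 45.4% of all genes, and the median was -0.09, against 0.02 over all genes tested. In the pairs of same-numbered arrays the medians of the 31 genes were -0.06, -0.15 and -0.09, against 0.02, 0.04 and 0.00 over all genes. All 3 pairs were lower for 16 genes and higher for 5, where 19.4% and 25.7% of all genes did the same. For 6 genes the 3 treated arrays were all on one side of the 3 vehicle arrays: 2 lay higher (6.53% of all genes) and 4 lower (3.62%). By role, 7 of 7 enzymes, 4 of 6 transporters and 4 of 5 synthetases lay below 0, as did 3 of 6 transcription factors and 2 of 5 feedback genes. Differences between roles were not tested.

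**Figure D1:**
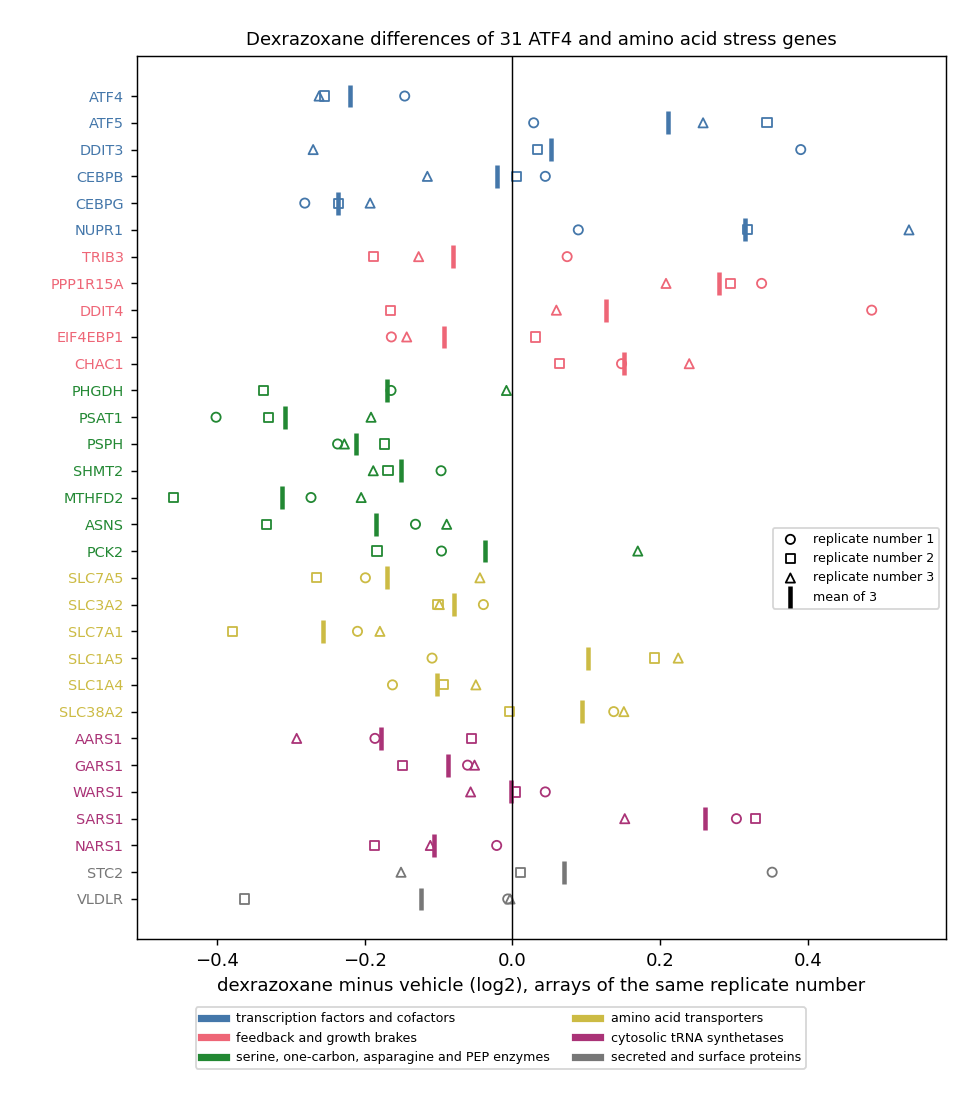
Dexrazoxane minus vehicle (log2, horizontal axis) for each of the 31 genes in rows, coloured by role; open symbols are the 3 pairs of same-numbered arrays and bars their means. The 7 enzyme means all lie left of 0, and no mean reaches beyond -0.31 or 0.32.

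Among the transcription factors, ATF4 itself was at 11.41, 11.86 and 11.85 on vehicle arrays 1 to 3 and at 11.26, 11.61 and 11.59 on the dexrazoxane arrays. Each treated array lay below its same-numbered vehicle array, yet the groups overlap, since vehicle array 1 was below treated arrays 2 and 3. The mean difference was -0.22 ± 0.07 (SE with the block, 95% interval -0.39 to -0.05, limma adjusted p = 0.128). Without the block its SE was 0.17 and its 95% interval -0.60 to 0.16, which includes 0 (limma adjusted p = 0.9999). In fits without the block, leaving out vehicle array 1 gave -0.37 and leaving out dexrazoxane array 1 gave -0.11. A single array left out leaves its same-numbered partner in, so the spread between numbers enters such a difference. With both arrays of number 1, 2 or 3 left out and the block kept, the ATF4 difference was -0.26, -0.20 and -0.20. DDIT3, which encodes the pro-apoptotic factor CHOP, read 7.04, 7.78 and 8.94 in vehicle and 7.43, 7.82 and 8.67 with dexrazoxane. The arrays spread over more than a log2 unit inside each group and overlap throughout. Its pairs differed by 0.39, 0.03 and -0.27, and their mean of 0.05 had a 95% interval of -0.22 to 0.32 with the block and -1.02 to 1.12 without. Leaving out single arrays, without the block, turned the sign (-0.39 to 0.56), as did leaving out both number 1 arrays with the block (-0.12).

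NUPR1, a small stress-induced chromatin protein, was the factor whose arrays separated, at 6.19, 6.09 and 6.17 in vehicle and 6.28, 6.41 and 6.71 treated. All treated arrays lay above all vehicle arrays, by 0.32 ± 0.10 on average (SE with the block), with a limma adjusted p of 0.102 with the block and 0.963 without. Without dexrazoxane array 3 and without the block it was 0.19, and without both number 3 arrays, with the block, 0.20. CEBPG, a C/EBP partner of ATF4, differed by -0.24 (adjusted p = 0.104 with the block in limma) and lay lower in every pair, but its second probe set differed by 0.01. ATF5, a relative of ATF4, differed by 0.21 with overlapping arrays. CEBPB, another partner, differed by -0.02.

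The feedback genes had mixed signs, 3 above 0 and 2 below. PPP1R15A (GADD34), the phosphatase subunit that restores eIF2, was at 8.56, 8.40 and 8.51 in vehicle and at 8.90, 8.69 and 8.72 with dexrazoxane. Every treated array lay above every vehicle array. The difference was 0.28 ± 0.07 (SE with the block), which is 1.21-fold, with a limma adjusted p of 0.0728 with the block and 0.941 without. Its second probe set differed by 0.39. TRIB3, a pseudokinase that damps ATF4 and DDIT3, read 9.43, 9.86 and 10.09 in vehicle and 9.51, 9.67 and 9.96 treated. Those arrays interleave, and the difference was -0.08. CHAC1, an enzyme that degrades glutathione, was at 6.26, 7.17 and 6.89 in vehicle and 6.41, 7.24 and 7.13 treated. Each treated array exceeded its same-numbered vehicle array, though the groups overlap, by 0.15 on average (adjusted p = 0.286 with the block in limma). DDIT4, an inhibitor of mTORC1, differed by 0.13 and EIF4EBP1, which holds back cap-dependent translation, by -0.09.

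The enzymes formed the group with the most even signs, at a median difference of -0.18. Of the 7, 6 lay lower in all 3 pairs, PCK2 being the exception, against 19.4% of all genes. None was called, and 3 lay lower at an unadjusted p under 0.05 with the block in limma, against 9.37% of all genes. MTHFD2, the mitochondrial enzyme that passes on one-carbon units from serine, was at 12.10, 12.08 and 12.07 in vehicle and at 11.83, 11.62 and 11.86 with dexrazoxane. All treated arrays lay below all vehicle arrays, and the vehicle arrays nearly coincided. The difference of -0.31 ± 0.08 (SE with the block) is 1.24-fold, with a limma adjusted p of 0.0687 with the block and 0.941 without. Its second probe set differed by -0.26. SHMT2, which releases those units from serine in mitochondria, read 10.67, 10.64 and 10.63 in vehicle and 10.58, 10.48 and 10.44 treated. Those groups also do not overlap, at a smaller difference of -0.15 (adjusted p = 0.267 with the block in limma). Its other probe sets differed by -0.16 and -0.25, with overlapping arrays.

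The serine synthesis enzymes lay on the same side. PSAT1, the transaminase of the second step, differed by -0.31 ± 0.08 (SE with the block), at a limma adjusted p of 0.0648 with the block and 0.9999 without. It was lower in each pair by 0.40, 0.33 and 0.19, and its second probe set differed by -0.47. Vehicle array 1 of PSAT1, at 11.29, fell just inside the treated range, whose highest array was 11.30. PSPH, the phosphatase of the last step, differed by -0.21, and PHGDH, the dehydrogenase of the first step, by -0.17, neither called. ASNS, asparagine synthetase, read 9.73, 10.18 and 10.26 in vehicle and 9.60, 9.85 and 10.17 treated. Its groups overlap although each pair was lower, by 0.18 on average (adjusted p = 0.226 with the block in limma). In fits without the block that difference was -0.35 without vehicle array 1 and -0.046 without dexrazoxane array 1. With the block it was -0.21 without both number 1 arrays and -0.11 without both number 2 arrays. PCK2, the mitochondrial enzyme that makes phosphoenolpyruvate, differed by -0.04.

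**Figure D2:**
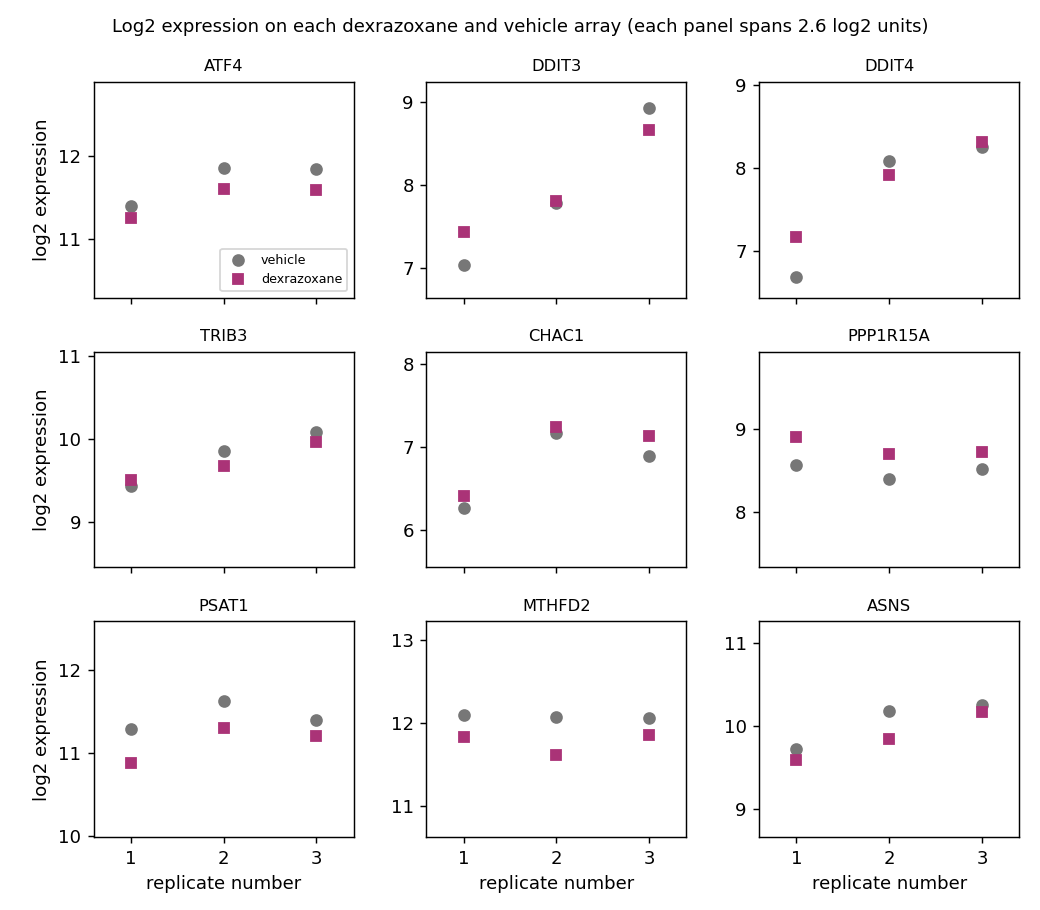
Log2 expression (vertical axis, each panel spanning 2.6 units) on each array for 9 of the genes, by replicate number (horizontal axis); circles are vehicle and squares dexrazoxane. PPP1R15A squares lie above and MTHFD2 squares below all circles, while DDIT3 and DDIT4 differ far more between numbers than between treatments.

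Of the 6 transporters, 4 lay below 0 and 2 above. SLC1A4, which carries alanine, serine and cysteine, was at 7.20, 7.07 and 7.09 in vehicle and at 7.04, 6.97 and 7.04 treated. The groups do not overlap, but the difference of -0.10 is small (adjusted p = 0.459 with the block in limma). On its other probe sets, at -0.11 to -0.04, the arrays overlap. SLC7A5, the light chain of the LAT1 transporter of large neutral amino acids, read 9.22, 9.16 and 8.90 in vehicle and 9.02, 8.90 and 8.86 treated, a difference of -0.17. SLC3A2, the heavy chain that brings it to the membrane, read 8.68, 8.79 and 8.91 in vehicle and 8.64, 8.69 and 8.81 treated, a difference of -0.08. Both chains were lower in all 3 pairs with overlapping arrays, and neither was called. SLC7A1, the carrier of arginine and lysine, differed by -0.26 at its brightest probe set, while its 4 others ranged from -0.14 to 0.04. At the brightest, in fits without the block, it was -0.46 without dexrazoxane array 1 and -0.077 without vehicle array 1. With the block it was -0.28 without both number 1 arrays and -0.19 without both number 2 arrays. The glutamine carriers SLC1A5 and SLC38A2 differed by 0.10 and 0.09.

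Among the synthetases, which load tRNAs with amino acids, AARS1 for alanine was at 9.28, 9.11 and 9.24 in vehicle and at 9.09, 9.05 and 8.95 treated. All treated arrays lay below all vehicle arrays, by 0.18 on average (adjusted p = 0.233 with the block in limma). SARS1, for serine, differed in the other direction by 0.26 (adjusted p = 0.0932 with the block in limma, and 0.9999 without). It was higher in all pairs, but its second probe set differed by -0.19. WARS1, for tryptophan, read 8.65, 8.73 and 8.73 in vehicle and 8.69, 8.74 and 8.67 treated, with no separation at all. GARS1 and NARS1, for glycine and asparagine, differed by -0.09 and -0.11. STC2, a secreted glycoprotein, was at 9.32, 9.66 and 9.56 in vehicle and at 9.67, 9.67 and 9.41 treated, an overlap with a mean difference of 0.07. VLDLR, a lipoprotein receptor, differed by -0.12, nearly all of it from pair 2 at -0.36.

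Some of these genes crossed the threshold when the same arrays were handled differently. With the mean of a gene's probe sets in place of the brightest, and the block, limma called PPP1R15A 0.34 higher (adjusted p = 0.0400), PSAT1 0.39 lower (0.0341) and MTHFD2 0.28 lower (0.0465), 1 gene up and 2 down, against 2.6% and 2.54% of all genes. With a trended, robust variance and the block, limma called 2 higher, PPP1R15A and SARS1, and 4 lower, ATF4, MTHFD2, PSAT1 and SLC7A1, against 6.73% and 5.78% of all genes. Without the block neither setting called any of the 31.

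Spread between replicate numbers, taken as the range of the 3 number means, exceeded the absolute treatment difference in 23 of the 31 genes. Among all genes tested it did so in 12587 of 14731, a larger share. A range over 3 means of 2 arrays tends to exceed a difference of 2 means of 3 arrays even in noise alone. These counts therefore do not tell which of the 2 was larger. In a test added after the data were seen, limma's moderated F statistic for the replicate number called 13 of the 31 genes, near the 38.7% of all genes. Among the 13, number 1 was lowest in 10 and highest in 2. It was lowest in 35.9% and highest in 52.6% of all genes so called. DDIT3 had the widest range between number means, 1.56 (adjusted p = 0.001 in limma), followed by DDIT4 at 1.35 and CHAC1 at 0.87. TRIB3 and ASNS ranged over 0.56 each, CEBPB over 0.52, VLDLR over 0.42 and ATF4 over 0.40, all lowest in number 1. ATF5 and SLC7A1, at 0.62 each, were instead highest in number 1. Without the number 1 arrays 1 of the 31 was called, and 1.49% of all genes. Without number 2 it was 13 of the 31 and 39.6% of all genes, and without number 3 it was 10 and 32.1%. The labels do not say what a number stands for, and the part of culture, extraction or hybridisation in this spread was not tested.

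**Figure D3:**
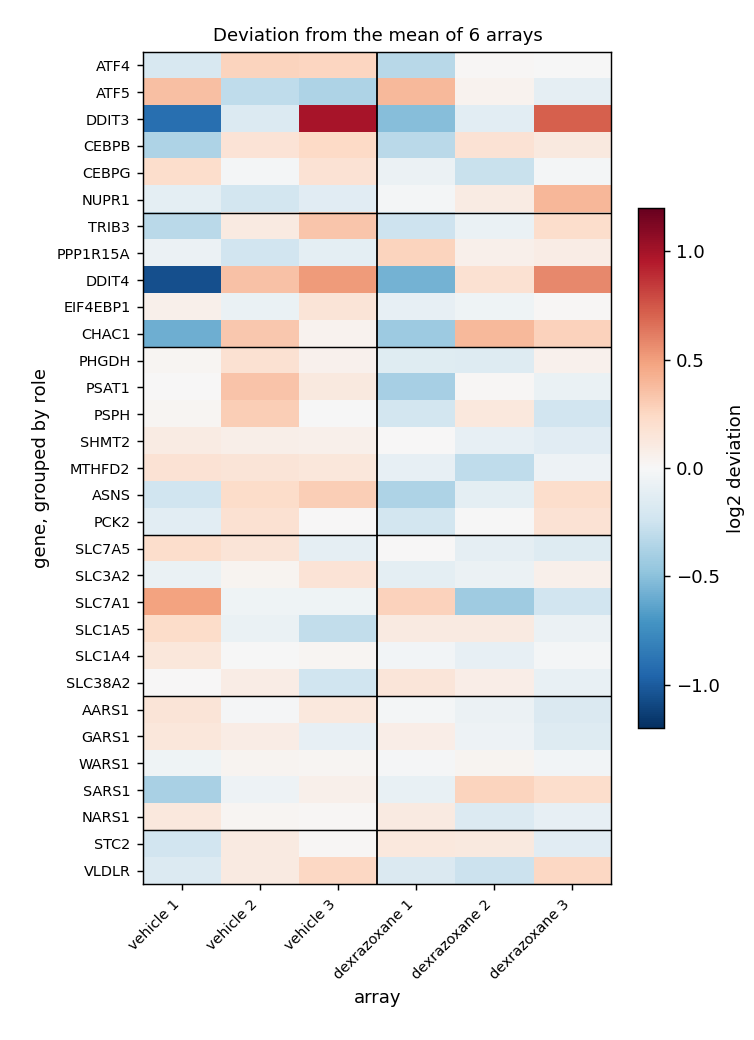
Deviation of each array from the mean of the 6 dexrazoxane and vehicle arrays (colour, log2) for the 31 genes in rows, ordered by role. DDIT3, DDIT4 and CHAC1 are low on both number 1 arrays, vehicle and treated alike.

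With doxycycline, 1 array a group, the genes lay close to their vehicle values, and no test was made. No gene of the 31 was at least 1.2-fold higher or lower, against 2.5% and 3.43% of all genes. Differences ran from -0.13 (PSAT1) to 0.21, with a median of 0.03, against 0.02 over all genes. Their SD was 0.086, against 0.146 over all genes tested. Of the 31, 21 lay above 0, 9 below and 1, DDIT4, had the same value of 5.48 on both arrays, where 54.4% of all genes lay above and 40.7% below. Identical values were common in this pair, at 9.62% of all probe sets. For scale, TOP2A differed by -5.96 on the same arrays.

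PPP1R15A had the largest doxycycline difference of the 31, from 8.26 to 8.47. SLC3A2 went from 8.23 to 8.43 and its partner SLC7A5 from 8.80 to 8.96. STC2 read 8.94 and 9.11 on the vehicle and doxycycline arrays. These 4 were apart by 0.21, 0.21, 0.16 and 0.17, all below 1.2-fold. DDIT3 read 6.25 and 6.38, and WARS1 read 8.28 and 8.41, a difference of 0.13 each. ATF4 read 10.90 and 10.97, ASNS 9.22 and 9.26, CHAC1 5.29 and 5.42, and TRIB3 8.81 and 8.90. These 4 were higher on the doxycycline array by 0.04 to 0.12, with no replicate to weigh that against.

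The treatments share no control arrays, so their signs can be set side by side. They matched in 14 of the 31 genes, 7 up in both and 7 down in both, and were opposite in 16, against a matching share of 56.9% over all genes. Of the 16, 14 were up with doxycycline and down with dexrazoxane, among them ATF4, ASNS, SHMT2, SLC7A5 and SLC3A2. NUPR1 and SLC38A2 were the reverse. PPP1R15A was up in both and PSAT1 and MTHFD2 were down in both. Across the 31 genes, which are not independent, the differences correlated at r = 0.39 (Pearson), against 0.23 over all genes tested.

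**Figure D4:**
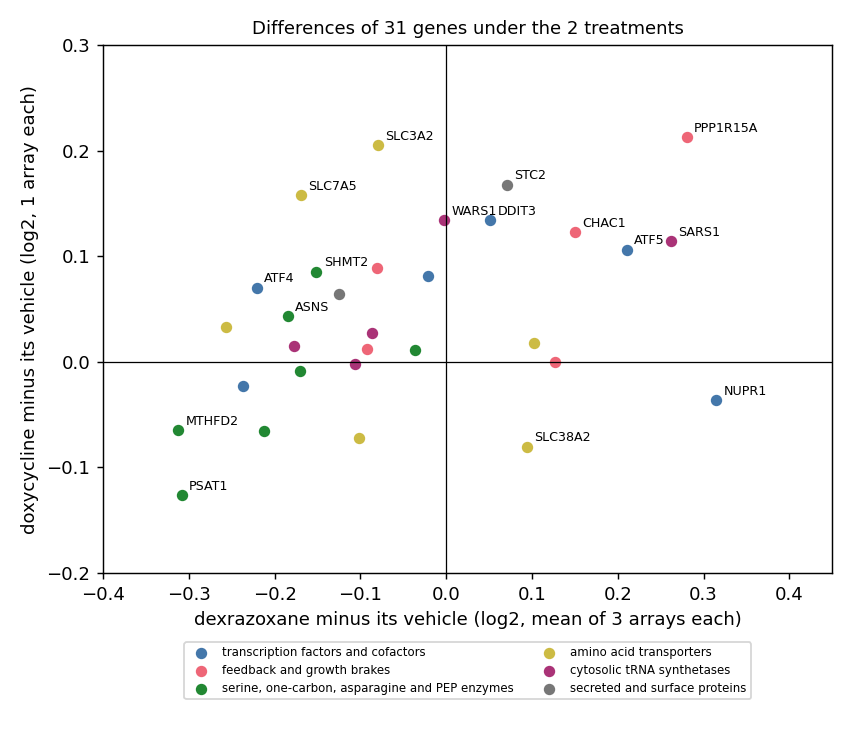
Doxycycline difference (vertical axis, log2, 1 array each) against mean dexrazoxane difference (horizontal axis, log2, 3 arrays each) for the 31 genes, coloured by role. PPP1R15A lies at the upper right, PSAT1 and MTHFD2 at the lower left, and ATF4, ASNS, SLC7A5 and SLC3A2 at the upper left.

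Neighbouring parts of the pathway were read in the same fits. Of 15 genes for the eIF2 kinases, eIF2 and its exchange factor, 0 were called in limma with or without the block, with 1 at an unadjusted p under 0.05 with the block; the smallest p belonged to EIF2B4, a subunit of the exchange factor, at a difference of 0.19 (adjusted p = 0.178 with the block). Of 12 other cytosolic tRNA synthetases tested, 0 were called and 9 lay below 0, against 45.4% of all genes. EPRS1, for glutamate and proline, had the smallest p at -0.33 (adjusted p = 0.0829 with the block in limma). Of 15 endoplasmic reticulum chaperone and folding genes, 0 were called, with HSP90B1 at -0.25 (adjusted p = 0.0992 with the block in limma). Here 10 of the 15 lay below 0, at a median of -0.11, close to the median of the 31 listed genes, -0.09. Of the 15 eIF2 genes 8 lay below 0. At an unadjusted p under 0.05 with the block, 1 of the other synthetases lay higher and 3 lower. The chaperone genes had 0 higher and 3 lower, and the 1 eIF2 gene was higher. Among all genes tested, 13% lay higher and 9.37% lower at that cut.

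Of 15 other known ATF4 targets tested, limma with the block called 1 higher and 2 lower, against 2.42% and 2.44% of all genes, and without the block 0. Of these 15, 8 lay below 0, at a median of -0.02. ATF3, a stress-induced partner of the family, rose by 1.29 ± 0.08 (SE with the block, limma adjusted p = 0.00225, and 0.345 without the block). With the mean of its probe sets the rise was 0.81 (limma adjusted p = 0.00437 with the block). SLC7A11, which imports cystine, fell by 0.59 (adjusted p = 0.0187 with the block in limma, and 0.941 without). Its difference was -0.39 without vehicle array 2 and without the block, and -0.48 without both number 2 arrays, with the block. ALDH1L2, a mitochondrial enzyme that oxidises formyl-folate in one-carbon metabolism, was at 5.60, 6.09 and 5.90 in vehicle and 5.16, 5.53 and 5.69 treated. It fell by 0.41 in the fit with the block (adjusted p = 0.0403 in limma, and 0.967 without the block). That call was lost without the number 1 or the number 2 arrays, at limma adjusted p = 0.149 and 0.0674 with the block, and with no filter on low values, at 0.0617. In the fit without the block the difference was -0.26 without dexrazoxane array 1. On the doxycycline pair, 1 array a group, ALDH1L2 read 5.40 and 4.91, ATF3 differed by 0.28 and SESN2, a stress-induced inhibitor of mTORC1, by 0.42. They were the 3 of these 15 genes past 1.2-fold, 2 higher and 1 lower, against 2.5% and 3.43% of all genes. The ALDH1L2 value of 4.91 lay near the filter cut of 4.83. SESN2 was named after its value was seen.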

How the data were processed

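Per the labels, total RNA from HTETOP cells was labelled with biotin and hybridised to 8 Affymetrix arrays. The authors deposited log2 levels for each probe set, and the submitters' processing notes name RMA; its software, and whether all arrays were processed together, are not given in the sources used here. Of 54675 probe sets, 41097 carried 1 gene symbol and were used, 1801 carried several and 11777 were unnamed; 41043 symbols were updated through Entrez identifiers (RefSeq, GRCh38.p14). The brightest probe set stood for a gene, and genes with a mean at or above the 40th percentile of all probe sets (4.83) were tested. The number of arrays limits the precision.

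Dexrazoxane was compared with its vehicle by a two-sided limma test (version 3.58.1, R 4.3.3; eBayes after lmFit), adjusted by Benjamini-Hochberg, at 0.05. Replicate numbers are shared between groups in the labels. Deviations from group means correlated at 0.823, 0.574 and 0.716 between same-numbered arrays and at -0.629 to 0.181 between others, so a second fit held the number as a block. The script was tested on simulated data. The genes and lists were chosen with earlier results of these data known. Values on every array were to be printed for listed genes called in the fit with or without the block, which were 0. They are printed for listed genes whose dexrazoxane groups do not overlap, for the 6 largest doxycycline differences and for ATF4, DDIT3, ASNS, CHAC1 and TRIB3. The rest of the listed genes are given mainly by their differences. Of other lists the genes called, or else that with the smallest p, are named. Alternatives were the block, other filters, probe set means, centring, the variance model and leaving out arrays.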

Additional observations from a re-analysis of the deposited data

How the results depend on the processing

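With the replicate number as a block the counts of the 31 genes called stayed at 0, and the block changed no call among them; it brought TOP2A past the threshold at -1.57, as it did ATF3, SLC7A11 and ALDH1L2. TOP2A also passed with no filter and the block, and with a trended, robust variance with or without the block (-1.57 each), with probe set means and the block (-1.18) and with centred arrays and the block (-1.58). Called genes numbered 1 higher and 2 lower with probe set means and the block, and 2 higher and 4 lower with a trended, robust variance and the block. The median doxycycline difference was 0.022 with probe set means and 0.045 with centred arrays. With arrays left out, TOP2A ranged from -1.75 to -1.39, the median dexrazoxane difference of the 31 genes from -0.13 to -0.039, and the genes that differed between numbers from 1 to 13. Ranges of single genes join fits with 1 array left out, without the block, and fits with both arrays of a number left out, with it. Signs turned for DDIT3 (-0.39 to 0.56), DDIT4 (-0.37 to 0.44), CHAC1 (-0.11 to 0.41), STC2 (-0.070 to 0.18), CEBPB (-0.21 to 0.13), PCK2 (-0.14 to 0.066), WARS1 (-0.030 to 0.025), TRIB3 (-0.26 to 0.068) and SLC1A5 (-0.017 to 0.24). With both arrays of number 1, 2 or 3 left out, CHAC1 (0.15, 0.19, 0.11) and TRIB3 (-0.16, -0.03, -0.06) kept their sign. DDIT3, DDIT4, STC2, PCK2 and CEBPB turned there too. The cause was not tested. Without a change of sign, ATF4 ranged from -0.37 to -0.11, ASNS from -0.35 to -0.046, SLC7A1 from -0.46 to -0.077, PSAT1 from -0.39 to -0.18, SARS1 from 0.13 to 0.37, ATF5 from 0.069 to 0.44 and NUPR1 from 0.19 to 0.43. Of the values of single listed genes under all alternatives run, 523 kept direction and side of the threshold, 9 gained a call and 26 changed sign; none could lose a call, since none was called to begin with. With 3 arrays a group and 1 a group, the number of arrays limits all of these.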
